A study of Homo sapiens with 18 samples.

Results

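In A549 cells treated with siRNA against ARID1A (siARID1A), chromatin was profiled by CUT&Tag with an antibody against ARID1A and with an antibody against YTHDF1, and the peak lists of the 2 antibodies were set against each other. The comparison used every peak list of this condition with these antibodies, which is 4 of the 12 lists analysed, 2 replicates for each antibody, and 267450 of 862590 peaks. A549 is an established line of human lung adenocarcinoma cells. CUT&Tag tethers a transposase to chromatin through an antibody, so that sequencing adapters are inserted near the bound protein. WT cells, and YTHDF1-KO cells in which YTHDF1 was knocked out, were profiled with the same antibodies in 2 replicates each and serve here only to show where the siARID1A cells differ. No YTHDF1 edit is named for the siARID1A cells, and no siRNA for the WT and YTHDF1-KO cells. The sources used here do not give the dose and duration of the siRNA, the depth of the knockdown or whether the knockout is 1 clone. Nor do they say that replicates were separate cultures, and p-values then measure the spread of these lists alone, which may be technical. The 6 IgG samples were not analysed here, so no IgG background can be set beside the lists. In YTHDF1-KO cells the YTHDF1 antibody still gave 50774 and 46225 peaks, against 57764 and 40562 in WT cells. Here a YTHDF1 peak means only a peak called with the YTHDF1 antibody. Whether such peaks mark YTHDF1 protein was not tested.

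ARID1A is a DNA-binding subunit of the BAF (SWI/SNF) complexes, which slide and evict nucleosomes at promoters and enhancers. YTHDF1 reads N6-methyladenosine in RNA and is known mainly from the cytoplasm, where it acts on the translation of methylated messages; it has no DNA-binding domain of the usual kinds. Interferon-stimulated genes are the antiviral genes switched on by interferon signalling, and AP-1 factors are the stress- and growth-responsive JUN, FOS and ATF proteins that act at many enhancers. An siRNA removes messenger RNA and leaves the gene's DNA in place, so a peak at the ARID1A gene does not check the knockdown.

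Promoters at which the ARID1A antibody had a peak in both replicates and the YTHDF1 antibody in neither are shown first, with 1 promoter held by all 4 lists for contrast. Each is 300 bases from RefSeq (GRCh38.p14), from 250 before to 50 after the annotated start, on the plus strand, 5′ to 3′. HERC5 encodes an ISG15 ligase and IFIT5 an antiviral RNA-binding protein, PMAIP1 encodes the pro-apoptotic protein NOXA, CDK1 the mitotic kinase and ZFP36 an RNA-binding protein that destabilises inflammatory messages. HERC5, PMAIP1, CDK1 and IFIT5 kept the pattern also when peaks within 3 kb or over the whole gene body were counted. Of all 1690 genes with this pattern 1270 (75.1%) kept it within 3 kb and 712 (42.1%) over the gene body, so those shown are not typical. HERC5 lies at chr4:88456869-88457168, PMAIP1 at chr18:59899746-59900045, CDK1 at chr10:60778081-60778380, IFIT5 at chr10:89414318-89414617 and ZFP36 at chr19:39406597-39406896. Capitals mark matches, on either strand, to any of 10 short motifs, searched by their letters. These were TGANTCA for AP-1, TGACGTCA for the cyclic AMP response element, CCGGAAGT for ETS factors, CGCATGCG for NRF1, GGGCGG for the GC box, CACGTG for the E-box, GGAATG for TEAD factors, TATAAA for the TATA element, CCAAT for NF-Y and GAAANNGAA for the interferon-stimulated response element (ISRE).
HERC5: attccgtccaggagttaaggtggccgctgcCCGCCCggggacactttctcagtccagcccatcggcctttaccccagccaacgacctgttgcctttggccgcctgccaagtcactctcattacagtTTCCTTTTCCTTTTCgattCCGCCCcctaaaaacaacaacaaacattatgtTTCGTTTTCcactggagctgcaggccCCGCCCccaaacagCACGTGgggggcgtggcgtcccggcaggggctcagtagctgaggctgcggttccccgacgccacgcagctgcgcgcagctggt
PMAIP1: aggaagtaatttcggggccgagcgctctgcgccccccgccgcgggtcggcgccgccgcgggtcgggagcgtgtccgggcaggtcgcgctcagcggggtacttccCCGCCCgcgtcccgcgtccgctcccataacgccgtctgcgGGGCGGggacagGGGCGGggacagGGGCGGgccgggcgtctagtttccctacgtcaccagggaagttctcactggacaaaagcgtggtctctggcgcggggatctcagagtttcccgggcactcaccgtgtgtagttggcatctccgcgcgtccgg
CDK1: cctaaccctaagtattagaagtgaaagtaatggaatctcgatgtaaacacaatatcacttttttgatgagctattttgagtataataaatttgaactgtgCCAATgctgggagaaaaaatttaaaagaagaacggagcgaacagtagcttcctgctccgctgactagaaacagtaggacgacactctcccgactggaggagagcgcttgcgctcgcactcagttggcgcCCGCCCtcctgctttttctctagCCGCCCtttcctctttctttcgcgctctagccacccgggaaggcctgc
IFIT5: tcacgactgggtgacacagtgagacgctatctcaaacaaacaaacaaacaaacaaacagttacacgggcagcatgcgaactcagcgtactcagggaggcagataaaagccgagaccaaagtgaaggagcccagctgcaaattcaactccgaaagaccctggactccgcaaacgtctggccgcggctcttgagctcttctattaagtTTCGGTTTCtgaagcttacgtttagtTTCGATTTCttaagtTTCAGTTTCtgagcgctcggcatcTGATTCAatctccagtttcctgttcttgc
ZFP36: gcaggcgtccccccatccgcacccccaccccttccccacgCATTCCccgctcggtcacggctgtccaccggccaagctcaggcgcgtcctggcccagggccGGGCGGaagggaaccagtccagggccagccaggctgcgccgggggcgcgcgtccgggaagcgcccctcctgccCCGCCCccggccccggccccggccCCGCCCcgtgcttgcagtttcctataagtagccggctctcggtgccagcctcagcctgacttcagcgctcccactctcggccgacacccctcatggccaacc
HERC5 and IFIT5 each held 3 ISRE matches, some of them overlapping in HERC5, while 7.06% of all 15812 promoters held at least 1. PMAIP1 held 4 GC boxes and CDK1 2, a motif present in 58.5% of all promoters. A match describes these letters only and is no evidence of a bound factor.

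The HERC5 promoter lay inside the ARID1A peak chr4:88456390-88457860 of replicate 1 and chr4:88456288-88457643 of replicate 2. By the authors' total signal of a peak, ranked within its list, these stood at percentiles 87.5 and 81.5. The nearest YTHDF1 peak lay 66.5 kb from the HERC5 start. PMAIP1 had ARID1A peaks at percentiles 78.0 and 79.1 with no YTHDF1 peak within 16.5 kb, and its ARID1A summits, the places of highest coverage, lay at -186.5 and -87 bp from the start (upstream). At both genes the 4 ARID1A lists of WT and YTHDF1-KO cells also held a peak over the printed promoter, and the 4 YTHDF1 lists of those cells held none within 1 kb. HERC5 stood at percentiles 51.0 and 63.1 in WT and 63.1 and 72.2 in YTHDF1-KO ARID1A lists, and PMAIP1 at 85.6 and 83.9 and at 84.0 and 83.8. CDK1 (74.9 and 88.0 in siARID1A, nearest YTHDF1 peak 44.3 kb away) kept the pattern in YTHDF1-KO cells but had a YTHDF1 peak in 1 WT list. IFIT5 (70.1 and 75.8, nearest YTHDF1 peak 33.7 kb away) kept it in WT cells but had a YTHDF1 peak in 1 YTHDF1-KO list. ZFP36 lay in broad peaks of 19588 and 30180 bp with the ARID1A antibody and 14646 and 21671 bp with the YTHDF1 antibody, all above percentile 99.9.

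On chromosomes 1 to 22 and X the ARID1A lists held 71271 and 79193 peaks and the YTHDF1 lists 59632 and 57354. Both ARID1A lists were longer, by 1.28-fold on the geometric mean (exact two-sided permutation p = 0.333, n = 2 against 2, the smallest this design allows). ARID1A peaks covered 99.0 and 128 Mb and YTHDF1 peaks 77.5 and 81.7 Mb, a ratio of 1.41 (same exact test, p = 0.333). Median peak widths were 1104 and 1243 bp with the ARID1A antibody and 1088 and 1168 bp with the YTHDF1 antibody. These widths overlapped between the antibodies (ratio 1.04, exact two-sided permutation p = 0.667, n = 2 each). With each list cut to its 57354 peaks of highest total signal, the medians were 1212 and 1450 against 1103 and 1168 bp, a ratio of 1.17 with no overlap (exact permutation p = 0.333, n = 2 each). Total signal grows with width, so such a cut drops narrow peaks first. It kept 80.5 and 72.4% of the ARID1A peaks but 96.2 and 100% of the YTHDF1 peaks. The part of the cut itself in the higher ratio was not tested. Peaks of 5 kb or wider numbered 958 and 1913 with the ARID1A antibody and 529 and 751 with the YTHDF1 antibody. Median peak heights were 5 and 5 against 4 and 4 of each library's smallest coverage steps. The sequencing depth behind the lists is unknown, and such low heights leave many peaks near the lowest listed height of 2 steps.

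In peak number, width and covered length the antibodies were closer to each other in siARID1A cells than in the other cells. The ARID1A lists held 92343 and 100729 peaks in WT and 99861 and 106882 in YTHDF1-KO cells, above both siARID1A lists. ARID1A lists were 1.99-fold longer than YTHDF1 lists in WT and 2.13-fold in YTHDF1-KO cells, against 1.28-fold here. The difference of -0.68 on the log2 scale was larger than nearly all rearrangements of the condition labels within each antibody gave (exact permutation over all arrangements, two-sided p = 0.00889, adjusted p = 0.0178 over 4 tests). The ratio of median widths was 1.496 in WT, 1.479 in YTHDF1-KO and 1.04 in siARID1A cells (exact permutation p = 0.0311, adjusted p = 0.0311). Covered length gave 3.71, 4.00 and 1.41 (exact permutation p = 0.0133, adjusted p = 0.0178). With all 12 lists cut to 40562 peaks the width ratio was 2.39, 2.44 and 1.22 and the covered length ratio 2.77, 2.91 and 1.26 (exact permutation p = 0.0133 and adjusted p = 0.02 for each over 3 tests). This cut by total signal also drops narrow peaks first, and it took most from the longest lists, the ARID1A lists of WT and YTHDF1-KO cells. These ratios are thus not free of list length, and the part of the cut in them was not tested. On the mitochondrial chromosome lay 49.5 and 44.9% of the listed signal of the siARID1A ARID1A lists, against a mean of 18.7% in WT and 22.8% in YTHDF1-KO ARID1A lists and 31.4 and 32.0% in the siARID1A YTHDF1 lists. The part of that share in these differences was not tested. The number difference no longer passed without replicate 1 of the siARID1A YTHDF1 lists (-0.65, exact permutation p = 0.0533). The width difference no longer passed without either WT ARID1A list, replicate 1 of the YTHDF1-KO ARID1A lists, either siARID1A ARID1A list or replicate 2 of the siARID1A YTHDF1 lists (-0.60 to -0.43, exact permutation p = 0.0533 to 0.0933), while covered length passed without any 1 of the 12 lists.

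Overlap between the antibodies was about as high as between the YTHDF1 replicates. As the base pairs shared divided by those covered by either list (the Jaccard index), the 4 pairs of lists with different antibodies gave 0.234, 0.235, 0.249 and 0.252. The ARID1A replicates gave 0.336, above every mixed pair, and the YTHDF1 replicates 0.229, below every mixed pair. At equal length the mixed pairs stood between 0.244 and 0.268, the ARID1A pair at 0.363 and the YTHDF1 pair at 0.2299. Counted by peaks, 37.9 to 42.3% of ARID1A peaks touched a YTHDF1 peak of a given list and 49.997 to 58.1% of YTHDF1 peaks an ARID1A peak. For comparison, 43.9 and 44.2% of the peaks of a YTHDF1 list touched the other YTHDF1 list. YTHDF1 peaks touched an ARID1A peak more often in the other cells, at 69.1 to 76.1% in WT and 65.2 to 69.7% in YTHDF1-KO. ARID1A peaks touched a YTHDF1 peak less often there, at 20.6 to 33.9% and 22.7 to 24.3%. The change in overlap from the other cells thus depends on the measure. The mean Jaccard index of mixed pairs was 0.243 in siARID1A, 0.182 in WT and 0.148 in YTHDF1-KO cells. WT pairs split by YTHDF1 list, at 0.226 and 0.236 with replicate 1 and 0.127 and 0.137 with replicate 2, the shortest list. YTHDF1-KO pairs gave 0.147 to 0.149. The mean over all mixed pairs of the 8 other lists, pairs across WT and YTHDF1-KO included, was 0.164. From it the siARID1A mean differed by 0.0787 (exact permutation over all arrangements, two-sided p = 0.0133, adjusted p = 0.0178). The Jaccard index cannot exceed the shorter covered length divided by the longer. The ratio of covered lengths was 3.71 in WT, 4.00 in YTHDF1-KO and 1.41 in siARID1A cells, so the index had less room in the other cells. The part of this in the difference was not tested. With all 12 lists cut to equal length the means of siARID1A, WT and YTHDF1-KO cells were 0.273, 0.217 and 0.180 (exact permutation p = 0.0489, adjusted p = 0.0489). With all peaks the overlap difference no longer passed without replicate 2 of the WT YTHDF1 or WT ARID1A lists, either YTHDF1-KO YTHDF1 list or replicate 2 of the siARID1A YTHDF1 lists (0.0684 to 0.0767, exact permutation p = 0.0533 to 0.133).

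**Figure D1:**
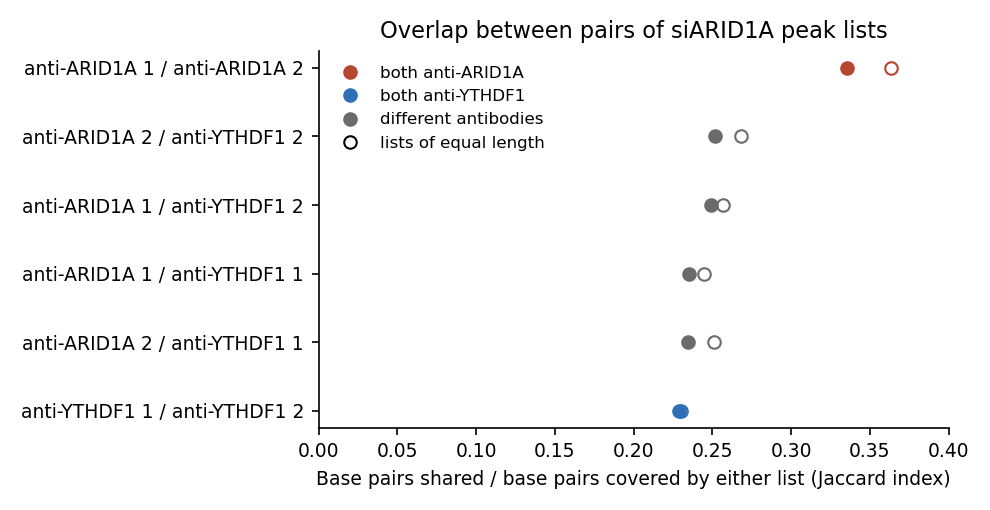
Jaccard index (x axis, base pairs shared divided by base pairs covered by either list) for the 6 pairs of siARID1A lists, with all peaks as filled points and lists of equal length as open points. The ARID1A replicates stand apart at 0.336, and the YTHDF1 replicates at 0.229 lie beside the mixed pairs at 0.234 to 0.252.

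Overlap between the antibodies was highest among peaks of high total signal. Total signal grows with width, and a wider peak touches others more easily, so strength and width are not told apart here. In the highest decile of total signal, 91.9 to 92.4% of ARID1A peaks touched a YTHDF1 peak of a given list, and 96.0 to 97.8% of YTHDF1 peaks touched an ARID1A peak. In the lowest decile these shares were 15.4 to 18.6% and 24.8 to 32.7%. Between YTHDF1 replicates they were 94.99 and 95.24% in the highest and 19.9 and 20.3% in the lowest decile. Among peaks that matched one to one, 20340 to 21483 per mixed pair, the Spearman correlation of total signal across peaks was 0.391 to 0.407, against 0.632 for the ARID1A and 0.419 for the YTHDF1 replicates. These correlations describe peaks that share a genome and a cell line, and peaks are not replicates. Of the 1000 highest peaks of each list, 52.4 to 53.2% were shared by a mixed pair, 77.8% by the ARID1A and 67.3% by the YTHDF1 replicates. At the top of the ranking the replicates of either antibody were thus closer than the mixed pairs.

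Summits of matched peaks of different antibodies lay a median of 260.5 to 281 bp apart. ARID1A replicates were 185.5 bp apart and YTHDF1 replicates 301 bp. Within 100 bp lay 24.5 to 25.6% of mixed, 35.0% of ARID1A and 22.7% of YTHDF1 summit pairs. The mean of the 4 mixed medians was 351 bp in WT and 397 bp in YTHDF1-KO cells, where ARID1A peaks were also wider, and this difference from siARID1A cells was not tested. On matched peaks the ARID1A peak was 1.05 to 1.29 times as wide as the YTHDF1 peak in siARID1A, 1.66 to 2.47 times in WT and 1.94 to 2.12 times in YTHDF1-KO cells. At gene starts with a single peak within 1 kb, ARID1A summits lay a median of 193.5 and 200 bp from the start and YTHDF1 summits 266.5 and 263 bp, and the replicates of the antibodies did not overlap in this measure.

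**Figure D2:**
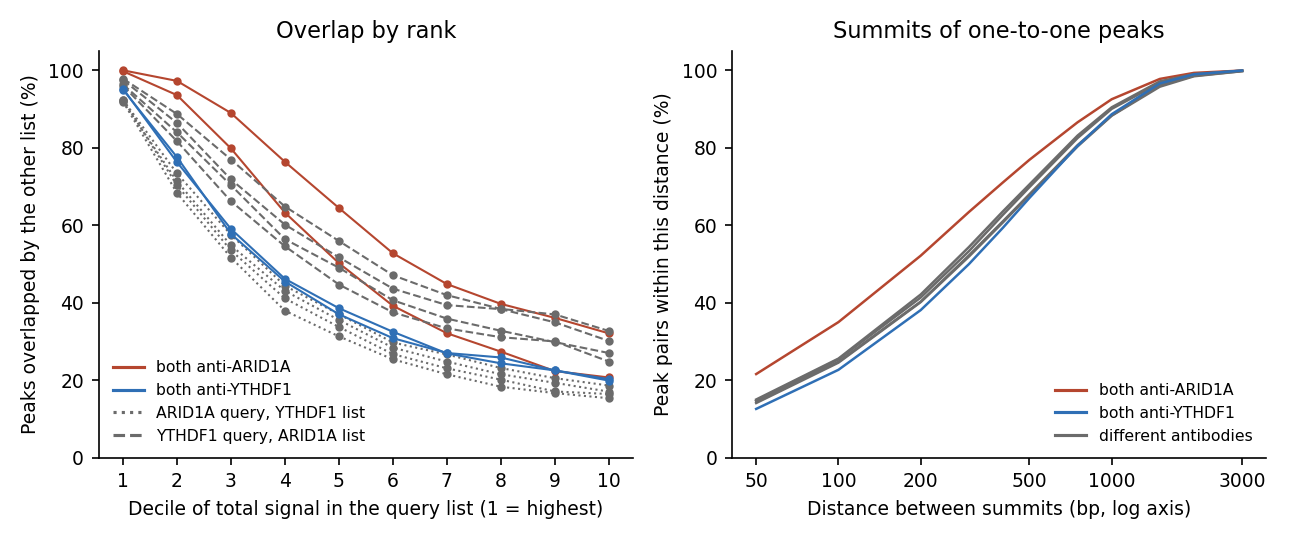
Left, share of the peaks of a list overlapped by another list (y axis, percent) by decile of the authors' total signal (x axis, 1 is the highest). Right, cumulative share of matched peak pairs (y axis, percent) by the distance between summits (x axis, bp, log scale). Overlap of mixed pairs runs from above 91% in the highest decile to 15.4 to 32.7% in the lowest, and at 100 bp the mixed summit curves (24.5 to 25.6%) lie between those of the ARID1A (35.0%) and the YTHDF1 replicates (22.7%).

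Merged, the 4 lists gave 132712 regions, of which 81374 (61.3%) were held by a single list. Both ARID1A lists and neither YTHDF1 list held 10442 (7.87%), both YTHDF1 lists and neither ARID1A list held 2032 (1.53%), and all 4 held 14855 (11.2%). The 4 combinations of 1 ARID1A list with 1 YTHDF1 list alone held 2136 to 3604 each, so YTHDF1-only regions were fewer than any mixed pair gave and ARID1A-only regions more. At equal length 7167 of 110982 regions (6.46%) were ARID1A only, 2685 (2.42%) YTHDF1 only and 13769 (12.4%) in all 4. The mixed pairs then held 1954 to 2861 each, so the YTHDF1-only count lay within their range. By chromosome the ARID1A-only share ranged from 5.63% on chromosome 22 to 10.3% on chromosome 4. The YTHDF1-only share ranged from 0.865% on chromosome 13 to 2.72% on chromosome 17.

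**Figure D3:**
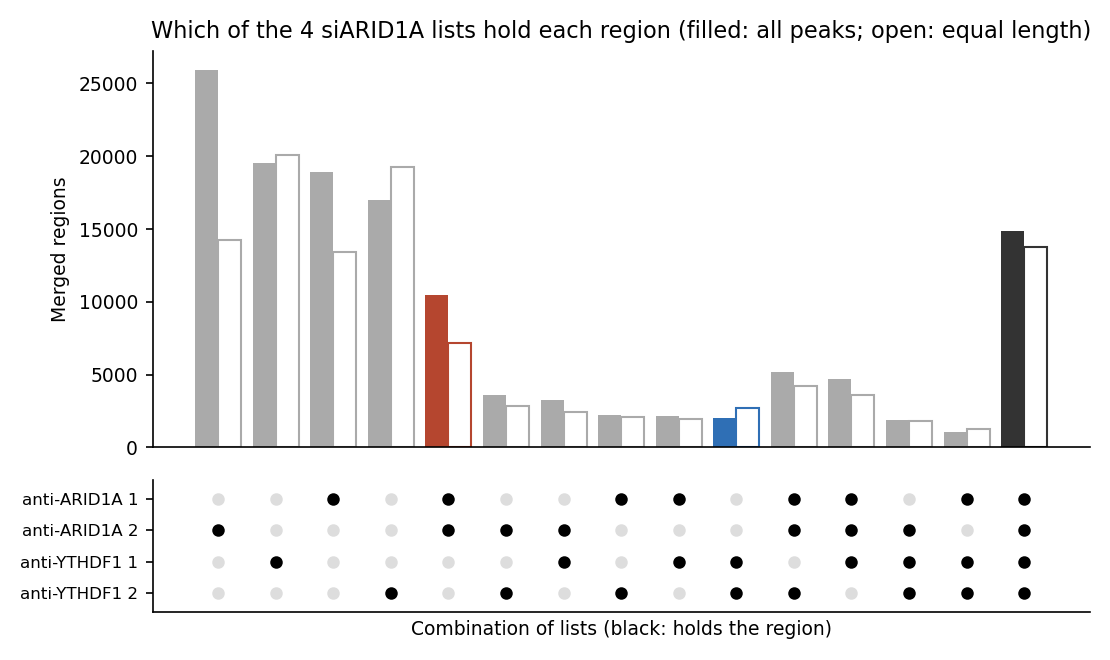
Number of merged regions (y axis) held by each combination of the 4 siARID1A lists, shown by black points under the bars, with all peaks as filled bars and lists of equal length as open bars. Regions of both ARID1A lists alone (red, 10442) outnumber those of both YTHDF1 lists alone (blue, 2032), and regions of all 4 lists number 14855.

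Regions of 1 antibody were weaker and narrower than shared ones. Their median width was 1574 bp for ARID1A only and 1589 bp for YTHDF1 only, against 3593 bp for regions in all 4 lists. For each region the highest peak percentile in each list that held it was averaged over lists, and its median was 48.6, 42.6 and 77.3 in the same order. A region merged from more peaks is also wider by construction. It can hold several peaks of a list, of which the highest counts, and total signal itself grows with width. Within 1 kb of a protein-coding gene start lay 14.1% of ARID1A-only, 4.23% of YTHDF1-only and 34.6% of shared regions, against 9.62% of all regions. The 3 ARID1A-only regions of highest percentile lay in FCHO1 at chr19:17753787-17758093 (97.8 and 98.5), near RHOB at chr2:20435967-20441289 (98.0 and 98.2) and near DENND4C at chr9:19183501-19187116 (97.7 and 98.4). FCHO1 encodes a factor of clathrin-coated pits and RHOB a small GTPase. The FCHO1 region was held by 3 and the RHOB region by 3 of the 4 YTHDF1 lists of the other cells, the DENND4C region by 2. For YTHDF1 only they lay in AHRR, the repressor of the aryl hydrocarbon receptor, at chr5:356387-358418 (96.2 and 96.4), at chr14:35947946-35949252 (95.6 and 95.5), where the nearest start, that of BRMS1L, is 121608 bp away, and in TBC1D3B at chr17:36172228-36174979 (93.6 and 93.9), which has near copies and is uncertain. All 3 were held by all 8 lists of the other cells, the ARID1A lists included. The regions of highest percentile in all 4 lists were the end of chromosome 5 (9980 to 12344), mitochondrial pseudogenes at chr1:629071-634937 and ribosomal RNA genes at chr21:8217397-8252505, where reads from repeated sequence cannot be placed for certain.

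How often each antibody held these classes was compared in the 8 lists of WT and YTHDF1-KO cells, which had no part in forming them. ARID1A-only regions were held by 85.5 to 89.4% in the 4 ARID1A lists and 15.4 to 28.3% in the 4 YTHDF1 lists, where all regions were held by 54.5 to 60.0% and 17.8 to 27.7%. Relative to all regions this is 1.52 (range 1.49 to 1.58) in ARID1A and 0.888 (0.839 to 1.02) in YTHDF1 lists (exact two-sided permutation p = 0.0286, n = 4 each, the smallest possible, adjusted p = 0.0286 over 2 tests). YTHDF1-only regions were held by 54.9 to 64.0% in ARID1A and 22.3 to 37.6% in YTHDF1 lists, or 1.06 (1.01 to 1.09) and 1.35 (1.26 to 1.44) times the share of all regions (exact permutation p = 0.0286, adjusted p = 0.0286). Regions of all 4 lists, which belong to neither antibody, stood at 1.74 (1.65 to 1.80) and 3.44 (3.06 to 3.82). The log2 difference, ARID1A minus YTHDF1 lists, was -0.99 for them and -0.36 for the YTHDF1-only class. ARID1A lists held 98.3 to 99.1% of the regions of all 4 lists, so their ratio had almost no room to rise. These log2 differences can therefore not be compared between the classes. Whether YTHDF1-only regions follow their antibody is not settled by their higher relative holding in YTHDF1 lists. In absolute share YTHDF1-only regions were held more often by ARID1A than by YTHDF1 lists. Among the YTHDF1 lists, those of YTHDF1-KO cells held 70.5 and 69.4% of the regions of all 4 lists. Those of WT cells held 84.8 and 67.8%. The full pattern, both lists of one antibody and neither of the other, recurred for 48.8% of ARID1A-only regions in WT and 53.1% in YTHDF1-KO cells, against 21.7 and 23.7% of all regions. For YTHDF1-only regions it recurred for 36 (1.77%) in WT and 37 (1.82%) in YTHDF1-KO cells, against 0.258 and 0.232% of all regions. More of them showed the opposite pattern, ARID1A only, with 384 (18.9%) in WT and 411 (20.2%) in YTHDF1-KO cells. These shares stand beside the 21.7 and 23.7% of all regions.

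**Figure D4:**
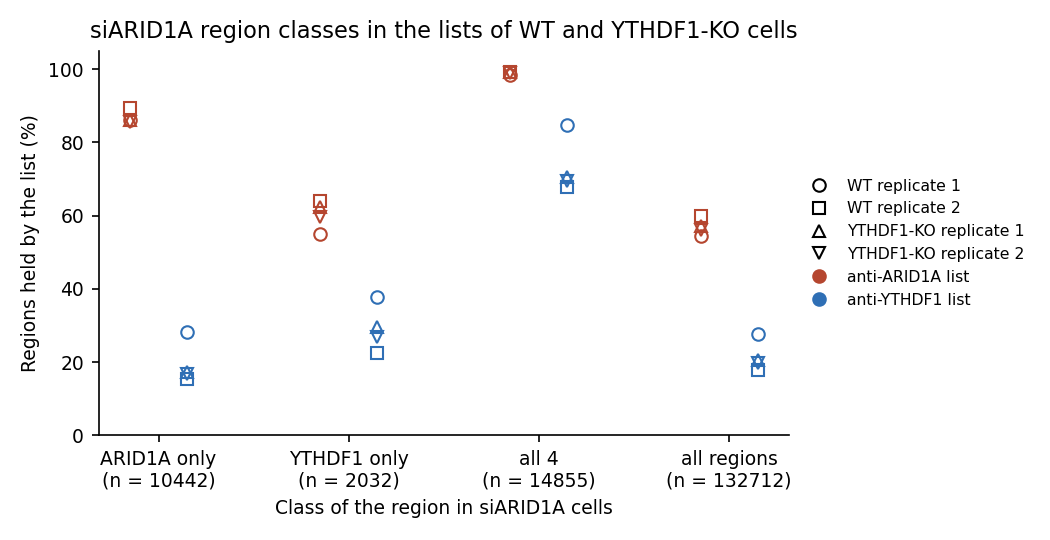
Share of regions (y axis, percent) of each siARID1A class held by each of the 8 lists of WT and YTHDF1-KO cells, by antibody (colour) and replicate (symbol). ARID1A-only regions lie at 85.5 to 89.4% in ARID1A lists and 15.4 to 28.3% in YTHDF1 lists, and YTHDF1-only regions at 54.9 to 64.0% and 22.3 to 37.6%.

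A peak within 1 kb of an annotated start was found for 12537 and 13236 of 19974 protein-coding genes with the ARID1A antibody and for 9604 and 9660 with the YTHDF1 antibody. All 4 lists held 6952 genes (34.8%) and no list 4948 (24.8%). ARID1A only numbered 1690 (8.46%) and YTHDF1 only 133 (0.666%), and at equal length 1371 (6.86%) and 184 (0.921%). Of these, 1347 (6.74%) and 130 (0.651%) also lacked a peak of the other antibody before the lists were shortened. Of the 1690 ARID1A-only genes 762 showed the same pattern in WT (45.1%) and 909 in YTHDF1-KO cells (53.8%), and 462 in both. ARID1A only were 17.5% of all genes in WT and 23.3% in YTHDF1-KO cells. Of the 133 YTHDF1-only genes 9 kept their pattern in WT (6.77%, beside 0.135% of all genes) and 2 in YTHDF1-KO cells (1.504%, beside 0.140%). More of the 133 were ARID1A only there, 29 in WT (21.8%, beside 17.5% of all genes) and 22 in YTHDF1-KO cells (16.5%, beside 23.3%). An ARID1A peak in at least 1 YTHDF1-KO list was found for 115 of the 133 (86.5%), beside 77.8% of all genes. Widening the window to 3 kb kept 1270 of the 1690 and 58 of the 133. The ARID1A gene (chromosome 1, 26696015 to 26782104) had a peak in all 4 lists, at percentiles 79.7 and 73.0 with the ARID1A antibody and 17.8 and 74.6 with the YTHDF1 antibody. The YTHDF1 gene (chromosome 20, 63195429 to 63216131) also had a peak in all 4, at 80.6 and 98.4 and at 77.7 and 68.5.

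Interferon-stimulated genes had the highest ARID1A-only share of the 19 gene lists in siARID1A cells. Of 34 members 9 were ARID1A only (26.5%, beside 8.46% of all genes), 0 were YTHDF1 only, 9 were in all 4 lists and 9 in none. Among the 9 were HERC5, IFIT5, the radical-SAM antiviral enzyme gene RSAD2, its neighbour CMPK2, a nucleotide kinase, IFI6, the tethering protein gene BST2, the oligoadenylate synthetase gene OAS3 and the antiviral GTPase gene MX1. RSAD2 and CMPK2 are a head-to-head pair and shared 1 peak. HERC5 and IFIT5 had the values given above, while MX1 was weak, at percentiles 31.9 and 9.57 in the ARID1A lists. At equal length 6 of 34 were ARID1A only (17.6%, beside 6.86%), and 7 of the 9 kept the pattern with 3 kb windows. In WT cells 6 of 34 (17.6%) showed the pattern, beside 17.5% of all genes, and in YTHDF1-KO cells 10 (29.4%), beside 23.3%, so the list stood near the background in WT. Members held by all 4 lists included ISG20, IRF1, STAT2, OASL, ISG15 and IFITM1, IFITM2 and IFITM3.

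The AP-1 and ATF family stood at the other end. Of 17 members 14 were held by all 4 lists (82.4%, beside 34.8% of all genes) and 0 by 1 antibody alone. In WT 10 of 17 were held by all 4, beside 28.8% of all genes, and in YTHDF1-KO cells 8 of 17, beside 23.6%. JUN stood at percentiles 89.8 and 93.3 in the ARID1A lists and at 0.754 and 81.8 in the YTHDF1 lists, and was below the cut in 1 YTHDF1 list at equal length. ATF3 stood at 88.7 and 56.9 and at 60.5 and 5.48, so 1 YTHDF1 list held each only weakly. Of 22 p53 targets 16 were in all 4 lists (72.7%) and 1 (PMAIP1) ARID1A only (4.55%), beside 34.8 and 8.46% of all genes. Of 30 lung epithelium genes 16 were in all 4 (53.3%) and 0 in 1 antibody alone. Of 24 haematopoietic markers 7 (29.2%) and of 21 neuronal markers 8 (38.1%) were in all 4 lists, near the 34.8% of all genes.

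Of 30 cell cycle and replication genes 5 were ARID1A only (16.7%, beside 8.46% of all genes), namely CDK1, the helicase subunit genes MCM2 and MCM3, the proliferation marker gene MKI67 and the transcription factor gene E2F2, and 18 were in all 4 lists. At equal length 4 of the 5 kept the pattern (13.3%, beside 6.86% of all genes), all but E2F2, whose second ARID1A peak stood at percentile 19.7. In WT cells 4 of 30 (13.3%) were ARID1A only, below the 17.5% of all genes, and in YTHDF1-KO cells 9 (30.0%), beside 23.3%. Of 25 NRF2 targets 3 were ARID1A only (beside 8.46% of all genes), the cystine transporter gene SLC7A11 (80.4 and 84.3) and the aldo-keto reductase genes AKR1C1 (73.7 and 82.0) and AKR1C3 (82.3 and 79.7), and all 3 showed the pattern in WT and YTHDF1-KO cells too. The nearest YTHDF1 peak lay 2.58 kb from SLC7A11, 2.56 kb from AKR1C1 and 4.01 kb from AKR1C3, and only AKR1C3 kept the pattern with 3 kb windows. AKR1C genes resemble one another, so their assignment is uncertain. Of 18 YAP and TEAD pathway genes 3 (16.7%) were ARID1A only (LATS2, TGFB2 and ANKRD1), and these kept the pattern at equal length and with 3 kb windows. The pattern held for 5 of the 18 (27.8%) in WT and 8 (44.4%) in YTHDF1-KO cells, beside 17.5 and 23.3% of all genes.

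Of the N6-methyladenosine machinery, 3 of 21 genes were ARID1A only (14.3%, beside 8.46% of all genes), the writer subunit genes VIRMA and RBM15B and the nuclear reader gene YTHDC1, and 11 were in all 4 lists (52.4%, beside 34.8%). YTHDC1 stood at percentiles 45.8 and 44.8 and showed the pattern in both other cell types as well. Of the 21 genes 4 (19.0%) were ARID1A only in WT, near the 17.5% of all genes, and 7 (33.3%) in YTHDF1-KO cells, beside 23.3%. Of 28 SWI/SNF subunit genes 2 were ARID1A only (BCL7A and SS18L1, 7.14%) and 17 in all 4 (60.7%). Of 29 R-loop resolution genes 3 were ARID1A only (DDX1, RNASEH2A and THOC1, 10.3%) and 12 in all 4 (41.4%). At equal length 1 SWI/SNF subunit gene (3.57%), 1 R-loop gene (3.45%) and 1 immune checkpoint ligand (6.25%) were ARID1A only, beside 6.86% of all genes. Nucleic acid sensing had 1 of 23 (IFIH1, which encodes the RNA sensor MDA5), immune checkpoint ligands 2 of 16, DNA damage response 3 of 27 and epithelial-mesenchymal transition 3 of 22, shares of 4.35 to 13.6% beside the 8.46% of all genes. Of 18 antigen presentation genes 0 were of 1 antibody alone, 4 were in all 4 lists and 7 in none. Ribosomal protein genes had 9 of 79 ARID1A only (11.4%) and 44 in all 4 (55.7%).

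**Figure D5:**
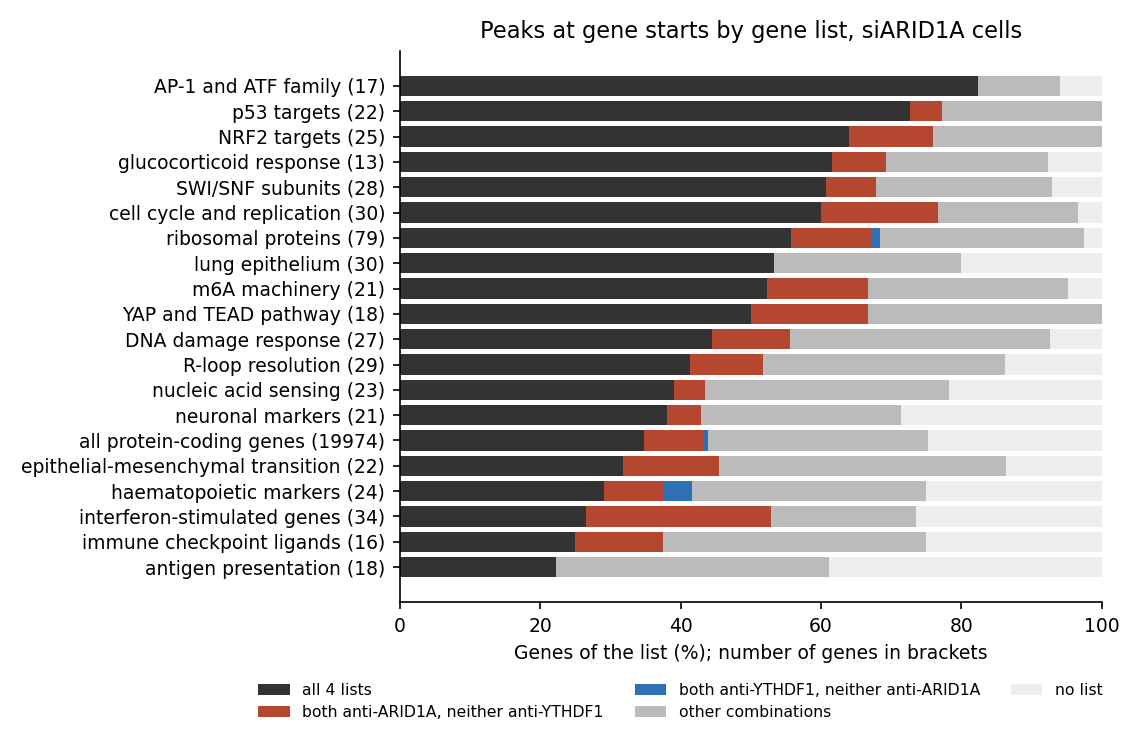
Share of the genes of each list (x axis, percent, number of genes in brackets) with a peak within 1 kb of a start in all 4 siARID1A lists, in both lists of one antibody alone, in other combinations or in none. The AP-1 and ATF family has the highest share in all 4 lists (82.4%), and interferon-stimulated genes the highest ARID1A-only share (26.5%, beside 8.46% of all protein-coding genes).

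Further ARID1A-only genes of the lists lay far from YTHDF1 peaks or close to the edge of the window. TGFBI, a matrix protein gene induced by TGF-beta, stood at 87.1 and 93.5 with no YTHDF1 peak within 19.9 kb, and XRCC5, a Ku subunit gene of DNA end joining, at 65.5 and 75.02 with one 3.17 kb away. CEACAM1 (78.8 and 66.2) and TFCP2L1 (66.2 and 74.0) had a YTHDF1 peak 1.19 and 1.14 kb from a start, just outside the window. RPLP0 (81.4 and 83.3), RPL24 (81.3 and 80.9) and RPL29 (69.0 and 71.2) had one 1.95 to 2.17 kb away. The 8 ARID1A-only genes of highest percentile, SGCE, PEG10, LAD1, HCST, EFNA5, INTS1, FAM187A and MEIOB, stood between 92.7 and 99.1, and SGCE and PEG10, an imprinted neighbour pair, shared 1 peak. All 8 had a YTHDF1 peak 1.01 to 1.55 kb from a start, and 7 of the 8, all but MEIOB, were held by all 4 lists with 3 kb windows.

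Of the gene list members only RPL7A and HBB were YTHDF1 only. RPL7A, a ribosomal protein gene, stood at percentiles 74.8 and 93.1 in the YTHDF1 lists, with peaks chr9:133346912-133347928 and chr9:133344942-133348032 with summits at -638 and -1049.5 bp from its start (upstream) and the nearest ARID1A peak 3.29 kb away. In WT cells all 4 lists held RPL7A. HBB, the beta-globin gene, stood at 64.6 and 11.4, with the nearest ARID1A peak 51.1 kb away. The 8 YTHDF1-only genes of highest percentile were FAM240C (99.6 and 99.5), the Polycomb gene PCGF2 (97.6 and 92.4), NPIPB5, ZDHHC11, SPDYE2B, BHLHA9, the corepressor gene CBFA2T3 and FAM246A. All 8 had an ARID1A peak 1.08 to 2.26 kb from a start, and 7, all but FAM246A, were held by all 4 lists with 3 kb windows. NPIPB5, ZDHHC11, SPDYE2B and FAM246A have near copies, so their assignment is uncertain. With 1 kb windows FAM240C alone of these 10 showed the pattern in YTHDF1-KO cells and 0 of 10 did in WT.

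Promoters of the classes differed in base composition. The median number of CpG dinucleotides in the 300 bases was 24 for ARID1A-only (1419 promoters), 14 for YTHDF1-only (89), 27 for promoters held by all 4 lists (5093), 5 for those of no list (4169) and 22 for all 15812. GC boxes were present in 64.3, 58.4, 76.5, 28.9 and 58.5%, and TATA boxes in 5.99, 10.1, 4.65, 19.7 and 9.64%. The ETS letters were in 8.598% of ARID1A-only, 7.52% of shared and 6.20% of all promoters, and ISRE in 7.12, 4.99 and 7.06%. These shares are descriptions, with no test, and the 89 YTHDF1-only promoters give only coarse ones.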

How the data were processed

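Peak lists of the 12 CUT&Tag samples with ARID1A or YTHDF1 antibodies were used, 1 per sample, and groups and replicate numbers came from the sample titles. The deposited lists give each peak's position, total signal, peak height and the summit where that height is reached. The authors' signal is coverage in a unit of its own for each library, so it was used only to rank, filter or describe peaks within a list. The submitters' processing notes name SEACR 1.3, Bowtie2 2.4.2, fastp 0.23.2, deepTools 3.5.2, bedtools 2.30.0 and SAMtools 1.9, and hg38 (GRCh38) as the build. Settings, depth and any use of IgG in peak calling: not given in the sources used here. Hence no counting interval is printed.

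Chromosomes 1 to 22 and X were kept, and peaks elsewhere made up 3.89 to 6.23% of the siARID1A lists. Overlap means 1 bp or more. Peaks of the 4 lists that overlapped or touched were merged into regions. Equal length means the 57354 peaks of highest total signal of each list. A gene was held if a peak came within 1 kb of any of its annotated starts, or, for 4162 of 19974 protein-coding genes without a start in the RefSeq promoter table, of either annotated end (SLC7A11, XRCC5, SGCE, PEG10, MEIOB, HBB and NPIPB5 among those named). Gene positions and promoters are from RefSeq, GRCh38.p14, and positions are 1-based. No genome was used, so exons and introns were not assigned and no peak sequence was read.

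Single values per list were compared by exact permutation tests over lists, with Benjamini-Hochberg adjustment and a threshold of 0.05. With 2 lists against 2 an exact permutation test cannot give a p below 0.333, so single regions and genes were not tested and are given as counts. Named genes are ARID1A and YTHDF1, the members of the 19 gene lists that show a 1-antibody pattern (for values, at most the 15 of highest mean percentile, with at most 3 ribosomal proteins), and the 8 genes and 3 regions of highest mean percentile in each class (for all 4 lists, 4 genes). JUN, ATF3 and further list members named only by class were chosen after their values were seen, as were the motifs. A gene that the rule names is not reported here. The members and lists were chosen with earlier results of these data known. Alternatives tried were lists of equal length, the 50% of peaks of highest signal, reciprocal overlap, other ranks, other gene windows and leaving out each list. Interval functions were tested on simulated data. Python 3.11.15, numpy 2.4.6, pandas 2.3.3 and matplotlib 3.10.9 were used.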

Additional observations from a re-analysis of the deposited data

Results flagged for a closer look

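The ratio between the antibodies differed between siARID1A cells and the other cells. The difference on the log2 scale, siARID1A minus the mean of WT and YTHDF1-KO, was -0.68 for peak number, -0.52 for median width and -1.45 for covered length. The mean Jaccard index of mixed pairs was 0.0787 higher than over all mixed pairs of the other lists, pairs across WT and YTHDF1-KO included. Each passed an exact permutation test of the condition labels, with the values given above. The Jaccard index is bounded by the ratio of covered lengths, so the overlap difference is not separate from that of covered length. On the mitochondrial chromosome, which no comparison used, lay 47.2 ± 3.23% (SD, n = 2) of the listed signal of the siARID1A ARID1A lists, against 18.7 ± 0.885% in WT and 22.8 ± 0.279% in YTHDF1-KO ARID1A lists and 31.7 ± 0.400% in the siARID1A YTHDF1 lists.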

How the results depend on the processing

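Of 153 recomputed values 116 kept their direction, their side of the threshold and, for counts and unreplicated values, about their size. Some of these were fixed in advance. Tests within the siARID1A lists cannot pass the threshold, so only their direction could change. Asking for overlap of 50% of the shorter feature gives the main region counts by construction. The ratio of median widths fell to 0.979, the opposite direction, without replicate 2 of the siARID1A ARID1A lists. The mean overlap of mixed pairs was 0.255 at equal length and 0.276 among the 50% of peaks of highest signal of each list, and the share of peaks with a reciprocal overlap of 50% was 0.218. Rank agreement was 0.500 by highest signal and 0.414 by total signal divided by width. Summit distance was 248 bp among the upper 50% of peaks and 256 bp among peaks of 2 kb or less. In the upper 50% ARID1A-only and YTHDF1-only regions numbered 6498 and 1166, and over whole gene bodies ARID1A-only genes numbered 1006. Leaving out 1 list, which loosens what both lists must share, gave 15555 to 38039 ARID1A-only regions, 3196 to 22262 YTHDF1-only regions, 2278 to 3168 ARID1A-only genes and 224 to 472 YTHDF1-only genes. It gave ratios of 1.22 to 1.35 for number, 0.979 to 1.10 for median width and 1.24 to 1.60 for covered length, overlaps of 0.235 to 0.250, rank agreements of 0.395 to 0.405 and summit distances of 266 to 281 bp. Without 1 list at a time, alternatives added after seeing the data, the differences from the other conditions ranged from -0.77 to -0.60 (exact permutation p up to 0.0533) for number, -0.60 to -0.43 (p up to 0.0933) for median width, -1.63 to -1.26 (p up to 0.04) for covered length and 0.0684 to 0.101 (p up to 0.133) for overlap. With the replicate number as a block the ratios were 1.28, 1.04 and 1.41 for number, width and covered length (exact p = 0.5, the smallest with 2 pairs). Pairs of lists with the same number overlapped by 0.243 and with different numbers by 0.242, so overlap showed no pairing. With both antibodies, however, replicate 2 had the wider median and the larger covered length. Whether the numbers pair the lists cannot be told from these values. Depth is unknown and limits every absence of a peak.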
